A study of Mus musculus with 19 samples.

Results

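The cornea was compared with the conjunctiva in mice kept on calorie restriction (CR), as 5 cornea and 5 conjunctiva libraries of the 19 in the series. They were chosen by the tissue and diet named in their labels. The other 9 libraries, 5 of cornea and 4 of conjunctiva, came from mice that ate freely (ad libitum, AL) and were used for 1 side comparison. All mice were C57BL/6, a common inbred strain, which the study's methods give as C57BL/6 J, and by those methods all were female. The titles of both diets carry 6M and 50W, which the labels do not spell out, and name no agent or engineered allele. By the study, restriction began in adult mice, was brought in stepwise and was kept up for months. Restricted mice were fed daily, shortly before dark. The study's methods give their exact ages and the degree of restriction. By the methods, corneal epithelial cells were scraped off while the conjunctiva was cut out whole, so tissue and way of sampling cannot be told apart. The labels do not say whether libraries with the same number came from 1 mouse, or that libraries of a tissue came from separate mice. The methods state that several tissues were taken from each mouse, so cornea and conjunctiva libraries may share mice. The main test treated all libraries as independent. The study's figure captions count the replicates of each tissue as mice. The p-values measure the spread between these libraries, in which differences between mice and technical ones cannot be told apart.

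The corneal epithelium is a clear, stratified covering over a stroma that normally holds no blood vessels, and it lives partly on glycogen and glucose delivered from outside. The conjunctiva is the mucous membrane around it. Its epithelium contains goblet cells, which secrete gel-forming mucin, and lies on connective tissue with vessels, nerves and immune cells. Both epithelia are kept apart by the limbus, where corneal stem cells reside. Keratins, the filament proteins of epithelial cells, are the usual way to tell these surfaces apart. *Krt12* is the textbook corneal keratin, and *Krt13* and *Krt4* are keratins of moist, stratified linings such as the conjunctiva.

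Levels are given as RPM, the reads of a gene per 1000000 reads, counted over all joined genes without the ribosomal precursor *Rn45s*. A difference is the cornea mean minus the conjunctiva mean on the log2(RPM + 0.5) scale, with its standard error from limma, so a positive value is higher in the cornea. A gene was called when its Benjamini-Hochberg adjusted p was under 0.05 and its fold over 1.5. It was tested when its mean over the 10 libraries together was at least 1 RPM. A gene near 0 in 1 tissue was thus tested only where the other tissue was high, so its direction was largely set by that filter. The libraries held 10410432 to 14681223 counted reads for cornea samples and 11957145 to 13116377 for conjunctiva samples (exact permutation p = 0.75). *Rn45s* took 11% ± 2.50 and 8.69% ± 3.04 of them (SD, n = 5 each, exact permutation p = 0.21). At least 1 read was found for 55.6% ± 3.06 of the listed genes in the cornea and for 62.9% ± 2.29 in the conjunctiva (n = 5 each, exact permutation p = 0.016). The 10 genes with the most reads took 16.25% ± 0.402 of reads in the cornea and 12.3% ± 0.816 in the conjunctiva (n = 5 each, exact permutation p = 0.0079, the smallest that 5 against 5 can give). Pairs of libraries correlated at 0.936 to 0.972 within the cornea, 0.900 to 0.970 within the conjunctiva and 0.738 to 0.845 between them. Along the first principal component, with 74.3% of the variance, every cornea library lay apart from every conjunctiva library. On the second, which held 7.31%, conjunctiva CR 5 (−56.5) and cornea CR 7 (−41.8) lay apart from the rest of their tissues.

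*Krt12*, the marker of the cornea, followed its label in all 10 libraries. It stood at 27562, 25935, 26207, 32652 and 17687 RPM in cornea CR 1, 2, 3, 4 and 7 and at 38.9, 167, 202, 80.6 and 376 RPM in conjunctiva CR 1 to 5. The lowest cornea library lay far above the highest conjunctiva library, and the difference was 7.59 ± 0.55 (adjusted p = 2.9e-06). In RNA of scraped corneal epithelium and of whole conjunctiva, fewer cells of a type and less RNA per cell cannot be told apart. *Krt13*, the marker named for the conjunctiva, did not follow it. Its levels were 2089.6, 2375, 2462, 2396 and 4735 RPM in the cornea libraries and 2083, 1638, 942, 3490.4 and 1876 RPM in the conjunctiva libraries. The ranges overlapped, the cornea mean was the higher one, and the difference of 0.54 ± 0.32 was not called (adjusted p = 0.21). Without conjunctiva CR 4, its highest conjunctiva library, it was called towards the cornea (0.78, adjusted p = 0.032). In the AL mice its difference was 0.47 (adjusted p = 0.22). *Krt13* was thus no marker of the conjunctiva in these libraries, and their tissue is taken from the labels. The other conjunctival keratins and the goblet cell genes are given below. Most of these goblet cell genes were tested only through their conjunctiva level, so they are no independent support for the label.

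Both genes lie in the keratin cluster of chromosome 11, *Krt12* at chr11:99415664-99422593 and *Krt13* at chr11:100117327-100121566 (RefSeq, build GRCm38.p6). The *Krt12* window ends at a start that RefSeq lists inside this span. The annotation puts a second transcript, A830036E02Rik, across *Krt12*, and reads of the pair cannot be told apart where counting ignored strand. The 250 bases before the start of *Krt12* and *Krt13* are shown because these markers behaved so differently, next to *Krt5*, the type II keratin of basal cells, and *Krt18*, the simple keratin with the largest called difference towards the conjunctiva. All are read 5′ to 3′ along the gene, from GRCm38.p6. Capitals mark the letters TATAAA, known from core promoters, and CACCC, the core of Krüppel-like factor sites, or, for the opposite strand, TTTATA for the first motif and GGGTG for the second. *Krt12* (chr11:99422260-99422509, minus strand), *Krt13* (chr11:100121567-100121816, minus strand, the upstream one of its 2 listed starts), *Krt5* (chr15:101712906-101713155, minus strand) and *Krt18* (chr15:102027966-102028215, plus strand) read as follows.
Krt12: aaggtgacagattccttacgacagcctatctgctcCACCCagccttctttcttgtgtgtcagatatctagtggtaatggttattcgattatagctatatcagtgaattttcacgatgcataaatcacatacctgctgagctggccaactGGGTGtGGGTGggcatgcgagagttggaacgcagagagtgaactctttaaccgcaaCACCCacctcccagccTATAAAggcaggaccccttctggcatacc
Krt13: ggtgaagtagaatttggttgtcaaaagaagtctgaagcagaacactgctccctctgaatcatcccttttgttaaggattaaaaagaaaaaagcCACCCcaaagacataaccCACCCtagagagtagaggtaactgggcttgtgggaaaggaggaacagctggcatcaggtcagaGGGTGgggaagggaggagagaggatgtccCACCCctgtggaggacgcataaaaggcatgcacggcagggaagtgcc
Krt5: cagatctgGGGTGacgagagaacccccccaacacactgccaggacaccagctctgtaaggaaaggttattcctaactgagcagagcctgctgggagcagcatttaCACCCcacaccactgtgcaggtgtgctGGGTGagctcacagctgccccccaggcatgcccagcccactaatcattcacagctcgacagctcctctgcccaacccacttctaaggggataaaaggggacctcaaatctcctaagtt
Krt18: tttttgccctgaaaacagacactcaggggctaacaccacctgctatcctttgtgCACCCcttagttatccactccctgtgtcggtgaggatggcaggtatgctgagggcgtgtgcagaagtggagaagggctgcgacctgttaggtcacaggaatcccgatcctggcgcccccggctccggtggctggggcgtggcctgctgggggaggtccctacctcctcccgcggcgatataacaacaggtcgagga
Of 32851 mouse promoter windows of this length, 12.4% held TATAAA and 52.0% held CACCC on either strand, while 2.14% held CACCC at least 4 times. *Krt12* and *Krt13* each held it 4 times, *Krt5* 3 times and *Krt18* once. Of these 4 windows, *Krt12* alone held TATAAA, at base −29 from the start. The matches are descriptions of these letters in these windows.

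**Figure D1:**
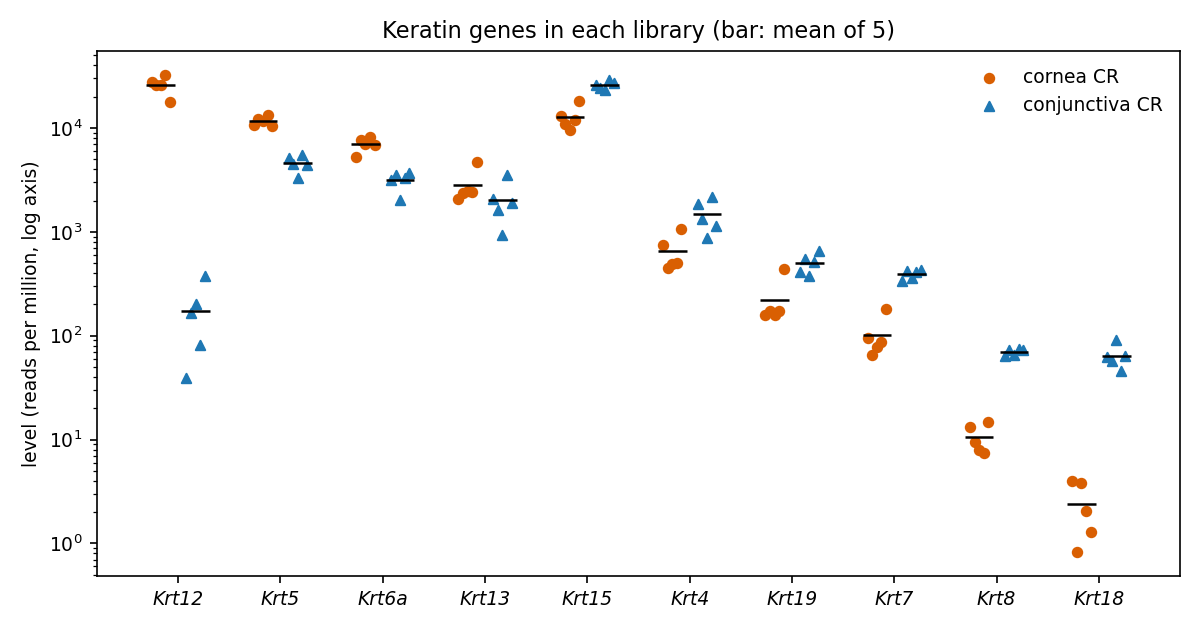
Levels of 10 keratin genes in RPM (log axis) in each of the 5 cornea (circles) and 5 conjunctiva (triangles) CR libraries, with a bar at the mean. The tissues stand apart for Krt12, Krt5, Krt15, Krt8, Krt18 and Krt7, and overlap for Krt13.

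The keratin family had 55 listed genes, of which 26 were tested. Of these, 6 were higher in the cornea, 10 were higher in the conjunctiva and 10 were not called. Over all 13355 genes tested, 8.95% were higher in the cornea and 27.7% in the conjunctiva. Scaling by trimmed means (TMM) gave 9 keratins in each direction, so the balance within the family depends on the scaling. Besides *Krt12*, the cornea had more *Krt5* (11687 ± 1117 against 4599 ± 847 RPM, SD, n = 5 each, difference 1.36 ± 0.14, adjusted p = 2.9e-07). The stress- and wound-associated keratins *Krt6a* (1.17, adjusted p = 1.2e-05) and *Krt6b* (0.98, 1.5e-05) were also higher there, although these are near-identical copies that share reads. *Krt78*, a keratin of differentiating squamous cells, was at 50.9 RPM in the cornea and 10.7 RPM in the conjunctiva (difference 2.23 ± 0.21, adjusted p = 9.8e-08). The remaining cornea-higher member, *Krt32*, had 1.76 and 0.409 RPM, and its call was lost without conjunctiva CR 4.

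The conjunctiva had more of the keratins of simple epithelium and, *Krt5* apart, of basal cells. *Krt15*, a basal and limbal keratin, took more reads than any other gene there. It stood at 25881, 24208, 23451, 29084 and 26863 RPM in the conjunctiva libraries and 13060.2, 10889, 9467, 11974 and 18102 RPM in the cornea libraries. The tissues did not overlap, although cornea CR 7 came nearest to the conjunctiva (difference −1.06 ± 0.15, adjusted p = 1.6e-05). *Krt8* was at 63.1, 72.9, 65.0, 73.8 and 72.7 RPM in the conjunctiva and 13.2, 9.50, 7.95, 7.44 and 14.8 RPM in the cornea (difference −2.71 ± 0.19, adjusted p = 2.8e-09). Its filament partner *Krt18* had 62.5, 56.6, 91.3, 46.0 and 63.7 RPM against 4.01, 0.830, 3.79, 2.05 and 1.28 RPM (difference −4.60 ± 0.32, adjusted p = 2.2e-09). For both of these simple keratins, every conjunctiva library exceeded every cornea library. *Krt7* (difference −2.04), *Krt19* (−1.28), *Krt4* (−1.2), *Krt14* (−1.03), *Krt17* (−1.24), *Krt23* (−0.97, lost with TMM scaling) and *Krt33b* (−1.97) were called in the same direction. *Krt4* stood at 748, 449, 487, 498 and 1055 RPM in the cornea and 1874, 1339, 877, 2188 and 1146 RPM in the conjunctiva, so only cornea CR 7 reached into the conjunctiva range. *Krt19* had 159.9, 173, 159, 173 and 442 RPM in the cornea and 408, 544, 379, 510.2 and 652 RPM in the conjunctiva, and again cornea CR 7 was the one library inside the other tissue's range. That library also held the most *Krt13* and the least *Krt12* of the 5 cornea libraries.

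Across the genome, 4900 of 13355 genes were called, 1195 higher in the cornea (8.95%) and 3705 higher in the conjunctiva (27.7%). These shares are the background for the list counts below. At a fold over 4, 200 genes (1.5%) were higher in the cornea and 1799 (13.5%) were conjunctiva-higher. The 5 and 5 libraries did not overlap for 1042 tested genes higher in the cornea (7.8%) and 3100 higher in the conjunctiva (23.2%), and 3735 of the called genes were among these. The median difference over all tested genes was −0.21, that is, towards the conjunctiva. Of the called genes, 24.4% were higher in the cornea, and this share depended on the scaling. It was 37.0% with TMM (1799 and 3065 genes, median −0.01), 33.3% with median-of-ratios factors (1593 and 3197 genes) and 56.9% after quantile normalization (3023 and 2293 genes, median 0.16). No cornea library had a read of 287 tested genes, while 7 were without reads in the conjunctiva.

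**Figure D2:**
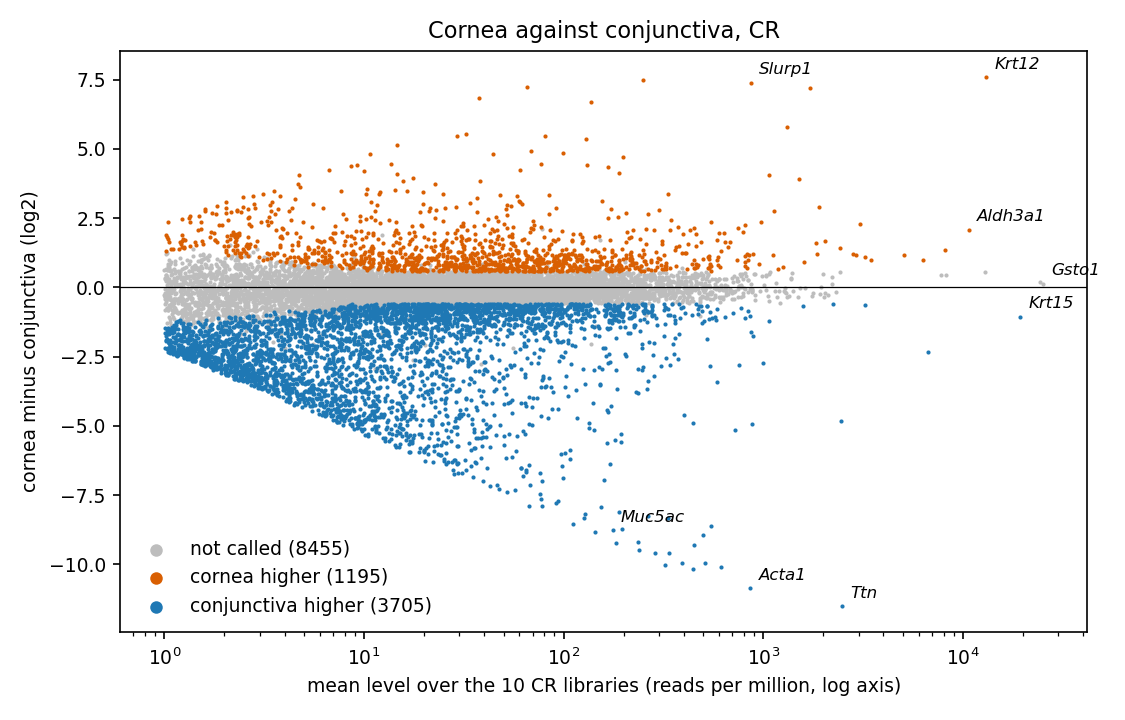
Difference between cornea and conjunctiva (log2 scale, positive for cornea) against the mean level of each of 13355 tested genes over the 10 CR libraries (RPM, log axis), with called genes in colour. The called genes extend to about 7.6 on the cornea side and to −11.5 on the conjunctiva side.

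The largest differences were sought among genes called at a fold over 4 whose libraries did not overlap between tissues. Their mean in the higher tissue also had to be at least 50 RPM. The 10 largest differences towards the cornea included *Krt12*, genes of secreted and membrane proteins, and a desmosomal gene. *Fam83a*, a signalling adaptor gene, stood at 472, 530.4, 568, 545 and 367 RPM in the cornea and 0.347, 2.38, 2.48, 2.65 and 6.02 RPM in the conjunctiva (difference 7.5 ± 0.43, adjusted p = 9.9e-08). *Slurp1* encodes a secreted protein of the Ly6 family that is abundant in cornea. It was at 1422, 1755, 1866, 2039 and 1512 RPM against 2.52, 10.4, 16.5, 5.74 and 30.7 RPM (difference 7.39 ± 0.56, adjusted p = 3.8e-06). *Lypd2*, its neighbour on chromosome 15 and a member of the same family, had 2991, 3426, 3715, 3778 and 3031 RPM against 13.1, 23.6, 32.4, 12.2 and 43.9 RPM (difference 7.21 ± 0.31, adjusted p = 5.1e-09). Full separation of the tissues was a condition for naming these 3 genes, and conjunctiva CR 5 was the highest conjunctiva library for each. *Dsg1a*, a desmosomal cadherin, had 273 ± 57.4 against 2.41 ± 1.63 RPM (SD, n = 5 each, difference 6.68 ± 0.28, adjusted p = 4.0e-11), and its close copy *Dsg1b* differed by 4.45 ± 0.49. *Mgarp*, a mitochondrial protein gene, had 2579 ± 274 against 48.7 ± 20.4 RPM (difference 5.8 ± 0.22). The rest of the 10 largest were *Fam169a* (7.23 ± 0.29), the opioid precursor gene *Pdyn* (6.83 ± 0.32), the calcium-binding protein gene *Necab1* (5.55 ± 0.45) and the cation channel gene *Trpm3* (5.47 ± 0.45), all with adjusted p between 2.9e-12 and 3.8e-06.

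The conjunctiva libraries held small amounts of most of these cornea genes. Taken over the 10 genes of largest difference, the median level in a conjunctiva library was 0.496%, 0.668%, 0.665%, 0.347% and 1.61% of the cornea mean in conjunctiva CR 1 to 5. *Krt12* was at 0.15%, 0.64%, 0.777%, 0.31% and 1.44% of its cornea mean in the same libraries, and *Slurp1* at 0.147%, 0.603%, 0.959%, 0.334% and 1.79%. The 5 libraries had the same order from lowest to highest for both, with conjunctiva CR 5 at the top. *Fam169a* and *Pdyn* had no read in that library. Whether these reads came from corneal cells in the sample was not tested.

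Enzymes for which the cornea is known took many of its reads. *Aldh3a1*, an aldehyde dehydrogenase counted among the corneal crystallins, had 12473, 20818, 21898, 16403 and 15425 RPM in the cornea and 3558, 4220.1, 3417, 4239 and 4723 RPM in the conjunctiva (difference 2.09 ± 0.16, adjusted p = 4.8e-09). *Tkt*, the transketolase of the pentose phosphate pathway, had 4289, 3623, 3364, 3521 and 1944 RPM against 365, 400.1, 520.5, 499 and 411 RPM (difference 2.90 ± 0.18, adjusted p = 7.6e-10). Neither gene overlapped between the tissues, and cornea CR 7 was the lowest cornea library for *Tkt*. The other 6 enzymes of that pathway, including *G6pdx* (0.15 ± 0.16), *Pgd* (−0.23 ± 0.13) and *Taldo1* (0.05 ± 0.13), were not called. *Gsto1*, a glutathione transferase, was among the genes with the most reads in both tissues and was not called, at 26345 ± 2922 and 24114 ± 3891 RPM (difference 0.14 ± 0.14, adjusted p = 0.47).

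Of 27 antioxidant and aldehyde enzymes tested, 4 were higher in the cornea, 8 were higher in the conjunctiva and 15 were not called, with a median difference of −0.44. Over all genes tested the shares were 8.95% and 27.7%, so the share higher in the conjunctiva was near the background. After *Aldh3a1*, the cornea-higher members were *Gsta4* (0.90 ± 0.14), *Txn1* (0.86 ± 0.16) and *Prdx6* (0.70 ± 0.18, a call lost without conjunctiva CR 5). The conjunctiva had more of the extracellular enzymes *Sod3*, an extracellular superoxide dismutase (0.321 against 32.7 RPM, difference −5.39 ± 0.34), and *Gpx3*, a secreted glutathione peroxidase (0.127 against 30.8 RPM, difference −5.37 ± 0.51, a call lost with voom). *Aldh2*, *Gstm1*, *Gclm*, *Cat*, *Sod1* and *Gstp1* were higher there as well, from −2.19 for *Gstm1* to −1.02 for *Gstp1*. The call of *Gstp1* (adjusted p = 0.049) was lost in 19 of 22 other settings, 8 of which left out 1 library.

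Glycogen genes were called in both directions. *Ppp1r3c*, which targets phosphatase to glycogen, had 477, 424, 398, 444 and 164 RPM in the cornea and 10.1, 12.3, 25.2, 9.09 and 13.7 RPM in the conjunctiva (difference 4.71 ± 0.33, adjusted p = 2.0e-07). *Pygl*, the liver form of glycogen phosphorylase, was at 88.5, 88.0, 112, 99.2 and 48.8 RPM against 7.82, 3.62, 13.0, 7.94 and 10.4 RPM (difference 3.33 ± 0.29, adjusted p = 1.2e-07). *Gyg*, the primer glycogenin, had 303 ± 45.4 against 42.3 ± 11.4 RPM (difference 2.85 ± 0.17, adjusted p = 2.1e-10). These 3 were the cornea-higher members among 12 tested (against 8.95% of all genes), with no overlap between tissues. Of the other members, 6 were higher in the conjunctiva (against 27.7%) and 3 were not called. The muscle phosphorylase *Pygm* ran the other way, with 0.335 RPM in the cornea and 186 RPM in the conjunctiva (difference −7.70 ± 0.53, a call lost with voom), as did *Gys1* (−2.46 ± 0.46), *Ppp1r3b* (−2.72 ± 0.54), *Pgm2* (−1.31 ± 0.29) and the brain phosphorylase *Pygb* (−0.80 ± 0.14). *Pygm* stood at 157, 227, 357, 148 and 42.2 RPM in conjunctiva CR 1 to 5, highest in CR 3 and lowest in CR 5 as the skeletal muscle genes below were. The part of muscle in these values was not tested.

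Of 15 glycolytic genes tested, 10 were higher in the conjunctiva (against 27.7% of all genes), 1 was higher in the cornea (against 8.95%) and 4 were not called (median −1.13, against −0.21 over all genes). Their summed level was 769 to 881 RPM in the cornea and 1754, 1993, 2646, 1807 and 1393 RPM in conjunctiva CR 1 to 5, which is the same order of libraries as for the skeletal muscle list below. The part of muscle in it was not tested. *Hk2*, a hexokinase, had 56.4 ± 11.4 against 260.1 ± 45.8 RPM (difference −2.20 ± 0.16, adjusted p = 3.5e-09) and *Aldoa* 133 ± 17.2 against 575 ± 207 RPM (difference −2.04 ± 0.20, adjusted p = 2.6e-07). *Aldoc*, another aldolase, was the member called towards the cornea (58.6 ± 14.8 against 12.9 ± 6.83 RPM, difference 2.21 ± 0.27, adjusted p = 2.8e-06). The lactate dehydrogenase subunits parted. *Ldha* was not called (−0.10 ± 0.14), and *Ldhb* was higher in the conjunctiva (−2.88 ± 0.35, adjusted p = 5.1e-06). *Gapdh*, *Pgam1* and *Eno1* have near-identical copies elsewhere in the genome, which makes their levels uncertain, and *Pgam1* and *Eno1* were under 1 RPM in both tissues.

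Genes of the junctions that anchor a squamous epithelium were mostly higher in the cornea. Of 22 genes of desmosomes and hemidesmosomes, 13 were higher in the cornea (against 8.95% of all genes), 3 were higher in the conjunctiva (against 27.7%) and 6 were not called (median 0.76). Their summed level was 11968 to 14022 RPM in the cornea libraries and 4944 to 7722 RPM in the conjunctiva libraries, without overlap. *Dsp*, which links desmosomes to keratin, had 3365, 3733, 3523, 3816 and 3019.9 RPM in the cornea and 1269.5, 1361, 939.7, 1338 and 1762 RPM in the conjunctiva (difference 1.41 ± 0.15, adjusted p = 3.2e-07). *Col17a1*, the transmembrane collagen of hemidesmosomes, had 1018, 1622, 1507, 1176 and 1313 RPM against 259, 272, 182, 391 and 319.7 RPM (difference 2.24 ± 0.18, adjusted p = 1.7e-08). Both genes separated the tissues completely. Isoforms within a family went in opposite directions. The desmogleins *Dsg1a*, *Dsg1b* and *Dsg3* (1.22 ± 0.19) were higher in the cornea and *Dsg2* (−1.01 ± 0.21), the form of simple epithelia, was higher in the conjunctiva. Likewise, the plakophilins *Pkp1* (1.05 ± 0.14) and *Pkp3* (1.46 ± 0.16) were higher in the cornea and *Pkp2* (−1.91 ± 0.31) in the conjunctiva. The third conjunctiva-higher member was the laminin chain *Lamb3* (−0.91 ± 0.17).

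The plakin genes of the cornified envelope showed the same direction. *Evpl* (envoplakin) had 975 ± 127 RPM in the cornea and 356 ± 48.4 RPM in the conjunctiva (difference 1.45 ± 0.13), and *Ppl* (periplakin) had 1119.9 ± 151 and 561 ± 73.3 RPM (difference 1.0 ± 0.13). With *Tgm1* (1.54 ± 0.28) these were the 3 cornea-higher genes of 11 tested in the list, against 8.95% of all genes. *Tgm5* and *S100a8* were higher in the conjunctiva, as were 27.7% of all genes. The call of *Tgm5* was lost with TMM scaling and without cornea CR 2 or conjunctiva CR 4. Most genes of the skin-type envelope had few reads in either tissue. *Ivl* had 6.91 and 4.03 RPM, *Lor* 0.570 and 2.62 RPM, and *Sprr1b*, *Sprr2d*, *Sprr2h*, *Sprr3* and *Tgm3* were all under 1 RPM on average.

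Tight junction genes split by claudin. Of 17 tested, 3 were higher in the cornea, 5 in the conjunctiva and 9 were not called, the conjunctiva share being near the 27.7% of all genes. *Cldn4* (509 and 469 RPM, 0.12 ± 0.13), *Cldn7* (0.31 ± 0.14) and *Ocln* (0.13 ± 0.27) were not called. *Cldn2*, a pore-forming claudin, had 29.6, 19.1, 31.8, 17.7 and 51.3 RPM in the conjunctiva and 0.528, 0, 0.758, 0.587 and 0.457 RPM in the cornea (difference −4.93 ± 0.36, adjusted p = 3.6e-09). *Cldn10*, another pore-forming claudin, had 22.5, 10.9, 14.2, 14.5 and 8.03 RPM in the conjunctiva and no read in any cornea library, which is at least 256-fold higher when 3 reads are allowed over the 5 cornea libraries together (0.0549 RPM). These 2 claudins separated the tissues fully. The scaffold gene *Tjp1* (1.0 ± 0.18) and the cingulin gene *Cgn* (0.77 ± 0.18) were higher in the cornea.

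The goblet cell genes that could be tested were all higher in the conjunctiva (against 27.7% of all genes), a count that the filter largely set. *Muc5ac*, the gel-forming mucin of conjunctival goblet cells, had 456, 313, 246, 201 and 543 RPM in the conjunctiva libraries and 0.633, 0, 0.152, 0.196 and 0.457 RPM in the cornea libraries (difference −8.77 ± 0.29, adjusted p = 2.5e-13). The second gel-forming mucin, *Muc5b*, had 68.0, 44.3, 55.1, 36.6 and 104 RPM against 0.211, 0.0923, 0, 0 and 0 RPM (difference −6.71 ± 0.32). *Spdef*, a transcription factor that goblet cells need, had 11.6, 10.9, 6.91, 4.59 and 10.9 RPM in the conjunctiva and no read in the cornea (at least 164-fold higher). All 7 tested genes of the list were higher in the conjunctiva with no overlap (against 23.2% of all genes), including *Foxa3*, *Agr2*, *Tff1* and *Fcgbp*. *Tff3* and *Clca1* were at or near 0 in both tissues. *Muc5ac*, *Muc5b*, *Spdef*, *Foxa3* and *Tff1* were under 1 RPM on average in the cornea and passed the filter only through the conjunctiva. The summed level of the list was 889.9, 628, 553, 388 and 987 RPM in conjunctiva CR 1 to 5 and 21.4 to 35.3 RPM in the cornea. Most of the cornea sum came from *Fcgbp* (21.3 RPM).

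Membrane-bound mucins did not share that pattern. *Muc4* was not called (1524 ± 172 and 1227 ± 257 RPM, difference 0.33 ± 0.15, adjusted p = 0.085), nor was *Muc20* (0.37 ± 0.16). *Muc1* (−1.61 ± 0.18) and *Muc13* (−2.54 ± 0.42) were higher in the conjunctiva. *Muc15* was higher in the cornea, at 38.8, 65.0, 85.2, 68.5 and 40.0 RPM against 5.12, 5.34, 1.77, 11.2 and 17.7 RPM (difference 3.05 ± 0.49, adjusted p = 3.2e-04). The tissues did not overlap for *Muc15*, and conjunctiva CR 5 held the most of it among conjunctiva libraries.

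Secreted defense genes were mostly higher in the conjunctiva. Of 11 tested, 7 were higher in the conjunctiva (against 27.7% of all genes), 1 in the cornea (against 8.95%) and 3 were not called (median −2.78). *Wfdc2*, a protease inhibitor, had 191 ± 19.8 RPM in the cornea and 1328 ± 247 RPM in the conjunctiva (difference −2.78 ± 0.14, adjusted p = 2.5e-11). *Lcn2*, an iron-withholding lipocalin, differed by −5.02 ± 0.30, *Pigr*, the receptor that carries IgA across epithelium, by −3.31 ± 0.35, and the lectin *Reg3g* by −5.63 ± 0.75, a call lost with voom. The beta-defensins parted. *Defb1* was not called (215 and 229 RPM, difference −0.08 ± 0.13), and *Defb14* was higher in the cornea at low levels (3.51 and 0.254 RPM, difference 2.25 ± 0.53).

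Transport genes separated the water channels of the tissues. *Aqp5*, the aquaporin of the corneal epithelium and of secretory glands, had 2940.4, 2703, 2692, 3465 and 2298 RPM in the cornea and 190, 166, 167, 226 and 186 RPM in the conjunctiva (difference 3.91 ± 0.13, adjusted p = 3.4e-13). *Aqp4* had 0.739, 1.01, 1.06, 1.37 and 1.55 RPM against 52.7, 61.5, 59.5, 45.5 and 169.9 RPM (difference −5.41 ± 0.31) and *Aqp1*, the aquaporin of vessels and stromal cells, 1.90 against 69.6 RPM (difference −5.23 ± 0.54). Only *Aqp5* of the 5 tested aquaporins was called towards the cornea, and *Aqp3* was not called (0.49 ± 0.17, adjusted p = 0.031), although TMM and median-of-ratios scaling called it cornea-higher. Among ion transport genes of fluid secretion, 7 of 12 tested were higher in the conjunctiva (against 27.7% of all genes). None was higher in the cornea (against 8.95%), though TMM scaling added 1 there. *Ano1*, a calcium-activated chloride channel, had 84.4, 81.5, 84.9, 71.0 and 80.0 RPM against 2.01, 0.738, 1.44, 1.47 and 1.64 RPM (difference −5.40 ± 0.22, adjusted p = 4.6e-12). *Cftr*, the cyclic AMP-regulated chloride channel, had 10.7, 10.3, 10.3, 11.9 and 16.8 RPM against 0, 0.646, 0.455, 0.391 and 2.56 RPM (difference −3.50 ± 0.42). *Atp1b1*, a sodium pump subunit, had 765 ± 128 RPM in the conjunctiva and 34.1 ± 15.4 RPM in the cornea (difference −4.59 ± 0.30). *Slc12a2*, the chloride loader NKCC1, was not called (0.21 ± 0.15).

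**Figure D3:**
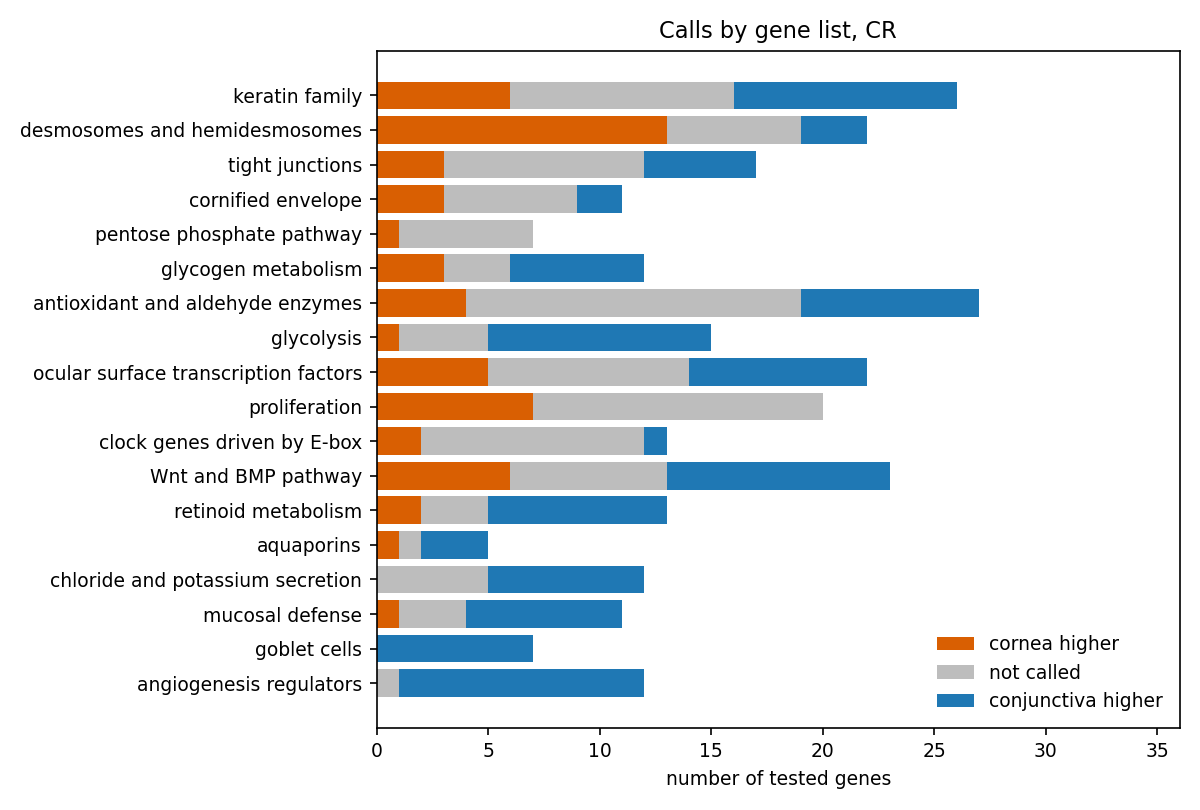
Number of tested genes in each of 18 gene lists that were higher in the cornea, higher in the conjunctiva or not called in the CR libraries. Desmosomes and hemidesmosomes had 13 of 22 members higher in the cornea, and goblet cells had 7 of 7 higher in the conjunctiva. Over all genes tested, 8.95% and 27.7% were called in these directions, and most of the 7 passed the filter only through the conjunctiva.

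Transcription factors of the ocular surface were divided. Of 22 tested, 5 were higher in the cornea (against 8.95% of all genes), 8 in the conjunctiva (against 27.7%) and 9 were not called. TMM scaling gave 7 in each direction. *Klf4*, a Krüppel-like factor of differentiating squamous cells, had 2618, 2964, 2761, 2898 and 2620.5 RPM in the cornea and 884, 796, 737, 1126 and 1039.5 RPM in the conjunctiva (difference 1.61 ± 0.13, adjusted p = 1.5e-08). *Pax6*, the master regulator of eye development, had 774, 788, 849.8, 721 and 645 RPM against 509.6, 501, 352, 457 and 440.3 RPM (difference 0.75 ± 0.13, adjusted p = 1.2e-04). Both were present in every library of both tissues, and the cornea libraries were all above the conjunctiva libraries. *Grhl1* (0.65 ± 0.13), *Grhl3* (1.01 ± 0.20) and *Tfap2a* (0.77 ± 0.19) were the other cornea-higher factors. *Klf5* (−0.33 ± 0.18), *Elf3* (0.36 ± 0.17), *Otx1* (−0.17 ± 0.14) and *Foxc1* (−0.23 ± 0.13) were not called. *Foxc2*, a forkhead factor, stood at 43.3, 42.5, 41.9, 41.6 and 40.0 RPM in the conjunctiva and 2.01, 0.277, 0.985, 1.08 and 1.46 RPM in the cornea (difference −4.77 ± 0.30, adjusted p = 5.1e-10). For *Foxc2* the conjunctiva libraries all lay above the cornea libraries. *Pitx1* (−4.56 ± 0.30), *Tfap2b* (−2.95 ± 0.17), *Irx1* (−3.06 ± 0.47) and *Irx2* (−2.80 ± 0.41) were higher in the conjunctiva too, as was *Sox9* (−0.61 ± 0.19), whose call was lost with TMM scaling and without cornea CR 1, cornea CR 4 or conjunctiva CR 5. The call of *Grhl1* was lost without conjunctiva CR 4.

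Basal and limbal genes gave no common direction. Of 6 tested, *Krt5* and the transporter gene *Abcg2* (38.9 ± 11.8 against 18.8 ± 3.47 RPM, difference 1.0 ± 0.21) were higher in the cornea. *Krt14*, *Krt15* and *Gpha2*, a hormone subunit gene known from limbal cells, were higher in the conjunctiva (*Gpha2* 76.8 ± 13.1 against 118 ± 15.9 RPM, difference −0.62 ± 0.14). The call of *Gpha2* was lost with TMM scaling and without cornea CR 2, cornea CR 3, conjunctiva CR 4 or conjunctiva CR 5. *Trp63*, the transcription factor of basal cells, passed the adjusted p but not the fold (0.41 ± 0.14, adjusted p = 0.021), and was called with TMM scaling.

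Proliferation genes leaned towards the cornea. Of 20 tested, 7 were higher in the cornea (against 8.95% of all genes), none in the conjunctiva (against 27.7%) and 13 were not called, with a median of 0.58. The 7 were *Mki67* (0.82 ± 0.28), *Ccna2*, *Ccnb1*, *Ccnb2*, *Plk1*, *Aurka* and *Rrm2* (1.25 ± 0.30). The libraries of the tissues did not overlap for 3 of the 20, all higher in the cornea, against 7.8% of all genes in that direction. The count rested on the scaling, with 13 called by TMM and 17 after quantile normalization. It also moved with single libraries, falling to 4 without conjunctiva CR 1 or CR 2 and reaching 11 without conjunctiva CR 4.

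The Wnt and BMP pathways, which guide epithelial renewal, contained ligands and antagonists in both directions. Of 23 genes tested, 6 were higher in the cornea (against 8.95% of all genes), 10 in the conjunctiva (against 27.7%) and 7 were not called. Among ligands, *Wnt7b* (123 ± 29.7 against 45.7 ± 7.25 RPM, difference 1.40 ± 0.17) and *Wnt3a* (4.78 against 0.454 RPM, difference 2.52 ± 0.41) were higher in the cornea, and *Wnt5b* (−2.30 ± 0.47), *Wnt5a* (−0.61 ± 0.22), *Bmp4* (−3.09 ± 0.27) and *Bmp2* (−1.45 ± 0.54) in the conjunctiva. The calls of *Wnt5a* (adjusted p = 0.03) and *Bmp2* (0.042) were lost with TMM scaling and when single libraries of either tissue were left out. The receptor *Fzd6* had 129, 163, 150.2, 157 and 129 RPM in the cornea and 41.0, 39.8, 42.2, 44.7 and 46.2 RPM in the conjunctiva (difference 1.75 ± 0.13), and *Fzd7* ran opposite (−1.96 ± 0.22). Of the secreted antagonists, *Dkk3* (1.82 ± 0.17) and *Sfrp1* (0.76 ± 0.15) were higher in the cornea. *Wif1* had 55.9, 30.7, 49.7, 53.7 and 32.5 RPM in the conjunctiva and 0, 0, 0, 0 and 0.365 RPM in the cornea (difference −6.29 ± 0.32, adjusted p = 3.9e-11), and *Dkk2* (−3.51 ± 0.30), *Sfrp2* (−3.31 ± 0.45) and *Sfrp5* (no read in the cornea) had the same direction. The BMP target *Id2* was higher in the cornea (902 ± 158 against 277 ± 50.8 RPM, difference 1.70 ± 0.15) and *Id3* in the conjunctiva (−1.08 ± 0.27).

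Retinoid genes, which handle the vitamin A that the ocular surface needs, were called in both directions. Of 13 tested, 8 were higher in the conjunctiva (against 27.7% of all genes) and 2 in the cornea (against 8.95%). TMM scaling and quantile normalization each gave 6 and 3. The retinoic acid-degrading enzyme *Cyp26b1* had 828, 419, 367, 365 and 147 RPM in the cornea and 78, 45.7, 99.3, 123 and 98.8 RPM in the conjunctiva (difference 2.12 ± 0.43, adjusted p = 0.0025), a gene with wide spread among cornea libraries and no overlap with the conjunctiva. The receptors parted, with *Rarg* towards the cornea (0.59 ± 0.15) and *Rarb* towards the conjunctiva (−3.23 ± 0.59). The call of *Rarg* was lost without cornea CR 2, cornea CR 3, cornea CR 7 or conjunctiva CR 3. *Stra6*, the cellular receptor for retinol-binding protein, differed by −3.12 ± 0.38 and the binding protein *Crabp1* by −4.59 ± 0.38.

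The conjunctiva libraries also carried genes of muscle. By the same rule, the 10 largest differences towards the conjunctiva were all muscle genes. *Ttn*, the giant spring protein of muscle, had 3710.4, 6712, 7680.2, 5221 and 1436 RPM in conjunctiva CR 1 to 5 and 3.90, 0.461, 0.909, 0.391 and 0.822 RPM in the cornea libraries (difference −11.50 ± 0.57, adjusted p = 1.8e-07). *Acta1*, skeletal alpha-actin, had 1122, 1755, 3528, 1784 and 429.8 RPM against 0.739, 0.0923, 0, 0.489 and 0.183 RPM (difference −10.85 ± 0.51, adjusted p = 4.6e-08). *Myh1*, a fast myosin heavy chain, had 489, 915, 1166, 526 and 131 RPM in the conjunctiva and no read in the cornea, at least 11879-fold higher. All 3 were lowest in conjunctiva CR 5 and highest in conjunctiva CR 3. The others were *Atp2a1*, *Myh4*, *Mb*, *Tnnc2*, *Tnnt3* and *Cox6a2* of skeletal muscle, with differences from −10.16 to −9.57, and *Myh11* of smooth muscle (−9.49 ± 0.35). With voom, which weights the recovered reads by their precision, *Ttn*, *Acta1* and *Myh11* of these 10 were called, and the other 7 missed the threshold (adjusted p 0.075 to 0.25, log2 differences −13.4 to −12.3). Myosin heavy chain genes resemble each other, so reads among *Myh1*, *Myh2* and *Myh4* may be shared. The skeletal muscle list summed to 3923, 6355, 11613, 5738 and 1242 RPM in conjunctiva CR 1 to 5 and to 0.881 to 6.44 RPM in the cornea. All 8 of its tested genes were higher in the conjunctiva (against 27.7% of all genes), but genes near 0 in the cornea could be tested only through their conjunctiva level.

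Stromal cell genes behaved in the same way. Over all genes tested, 27.7% were called towards the conjunctiva and 23.2% were higher there without overlap. Of 14 fibroblast genes, 13 were higher in the conjunctiva without overlap, such as *Dcn* (decorin, 58.7, 20.1, 62.0, 52.0 and 112 RPM in the cornea and 1454, 1546, 1989, 2433 and 1084 RPM in the conjunctiva, difference −4.93 ± 0.41), *Col1a2* (−4.90 ± 0.42), *Vim* (−5.28 ± 0.32) and *Pdgfrb* (−5.04 ± 0.44). The exception was *Fn1*, fibronectin, with 99.3, 135, 143, 129 and 119.9 RPM in the cornea and 42.6, 35.3, 57.6, 52.9 and 34.8 RPM in the conjunctiva (difference 1.5 ± 0.16, adjusted p = 4.9e-07). All 5 genes of smooth muscle and pericytes were higher in the conjunctiva, among them *Acta2* (3.07 ± 2.88 against 1087 ± 384 RPM, difference −8.62 ± 0.63) and *Rgs5* (−6.46 ± 0.45, a call lost with voom). So were all 13 tested genes of blood and lymph vessels. In these lists, genes near 0 in the cornea could pass the filter only through the conjunctiva. *Kdr*, the main VEGF receptor, had 72.4, 70.0, 119.7, 114 and 29.0 RPM in the conjunctiva and 3.27, 2.77, 0.758, 0.587 and 2.10 RPM in the cornea (difference −5.10 ± 0.42), and *Lyve1*, a marker of lymphatic vessels, had 38.0, 36, 47.9, 60.6 and 25.0 RPM against 0.317, 0.0923, 0, 0 and 1.55 RPM (difference −5.73 ± 0.39). Both separated the tissues. *Plvap* (at least 268-fold higher in the conjunctiva), *Tek* (at least 179.6-fold) and *Emcn* (at least 128-fold) had no read in any cornea library. Of 3 tested markers of the corneal stroma and endothelium, the collagen gene *Col8a1* was higher in the conjunctiva (1.60 against 5.29 RPM, difference −1.54 ± 0.51, adjusted p = 0.02), a call lost with voom, array weights and quantile normalization, and without cornea CR 1 or conjunctiva CR 4. The borate and proton transporter gene *Slc4a11*, at 11.1 and 7.51 RPM (difference 0.65 ± 0.41), and the keratocan gene *Kera*, at 0.537 and 2.05 RPM (difference −0.97 ± 0.60), were not called, although quantile normalization called *Slc4a11* cornea-higher and leaving out conjunctiva CR 2 called *Kera* conjunctiva-higher. *Col8a2* was not tested (0.653 and 1.11 RPM).

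Regulators of vessel growth leaned towards the conjunctiva. Of 12 tested, 11 were higher in the conjunctiva (against 27.7% of all genes) and *Thbs1* was not called (−0.41 ± 0.25). Members near 0 in the cornea, such as *Serpinf1*, could pass the filter only through the conjunctiva. The growth factor *Vegfa* had 33.3, 42.1, 51.8, 42.9 and 35.9 RPM in the conjunctiva and 3.06, 0.830, 2.80, 2.25 and 4.93 RPM in the cornea (difference −3.79 ± 0.31, adjusted p = 1.3e-08). Inhibitors were called in the same direction as the growth factors, *Serpinf1* (PEDF) with 48.2 against 0.484 RPM (difference −5.69 ± 0.33), *Thbs2* (−3.47 ± 0.43) and *Timp3* (−1.64 ± 0.20). The soluble and membrane VEGF receptor gene *Flt1* was at 8.35 ± 5.56 RPM in the cornea and 26.6 ± 9.27 RPM in the conjunctiva (difference −1.79 ± 0.38), a smaller difference than that of *Kdr*, and the test of that contrast was not run.

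Immune cell genes were low in the scraped cornea samples. Of 13 macrophage genes, 12 were higher in the conjunctiva without overlap, and *Cd68* was not called (−0.42 ± 0.25). Over all genes tested, 23.2% were higher in the conjunctiva without overlap, and 27.7% were called in that direction. In this and the following immune lists, genes near 0 in the cornea could pass the filter only through the conjunctiva. *Mrc1*, the mannose receptor of tissue macrophages, had 22.3, 36.3, 35.3, 53.3 and 28.4 RPM against 0.317, 0.277, 0.0758, 0.294 and 1.0 RPM (difference −5.33 ± 0.34), and *C1qa* 56.5, 47.0, 70.0, 68.9 and 48.1 RPM against 1.69, 2.58, 1.59, 3.03 and 1.10 RPM (difference −4.59 ± 0.25). Both separated the tissues. The 6 tested MHC class II genes were all higher in the conjunctiva, with *H2-Aa* at 196 ± 32.7 against 13.6 ± 6.36 RPM (difference −3.91 ± 0.26). Of 12 lymphocyte genes, 2 were tested and both were higher in the conjunctiva, *Ptprc*, which all white blood cells share (1.10 against 21.2 RPM, difference −4.11 ± 0.45), and *Jchain*, of antibody-secreting cells (−1.79 ± 0.48, a call lost after quantile normalization). The summed level of the list was 0.455 to 4.57 RPM in the cornea and 21.0 to 37.4 RPM in the conjunctiva, most of it from *Ptprc*. T and B cell receptor genes (*Cd3d*, *Cd3e*, *Cd3g*, *Ms4a1*, *Cd79a* and *Cd79b*) were under 1 RPM on average in both tissues and were not tested. Mast cell proteases *Cpa3* (−4.33 ± 0.39) and *Tpsb2* (−4.18 ± 0.40) were higher in the conjunctiva. The receptor *Kit*, which mast cells share with other cells, went against its list, with 127 ± 29.6 RPM in the cornea and 72.6 ± 11.5 RPM in the conjunctiva (difference 0.78 ± 0.17, adjusted p = 9.1e-04). *Cd207*, the defining gene of Langerhans cells, had no read in any of the 10 libraries, which allows up to 0.317 RPM in the shallowest.

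**Figure D4:**
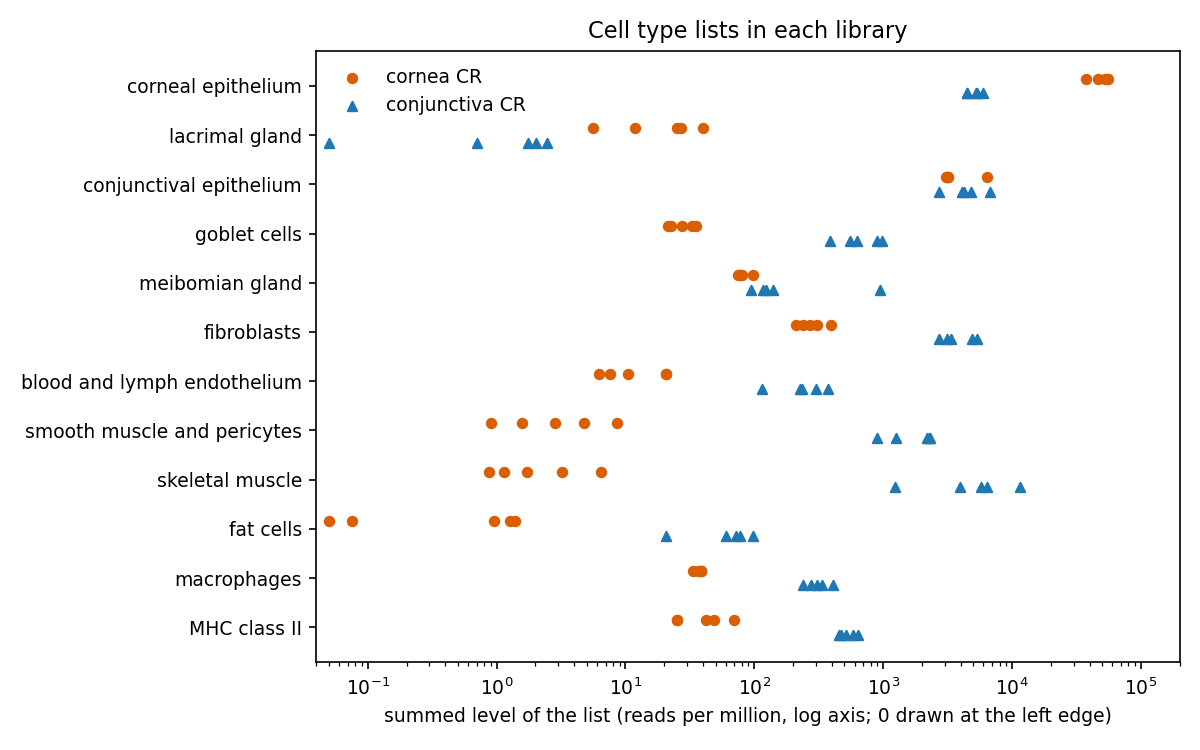
Summed level of 12 gene lists in each of the 5 cornea (circles) and 5 conjunctiva (triangles) CR libraries in RPM (log axis, with 0 drawn at the left edge). Of these 12 lists, the cornea libraries lie above the conjunctiva for corneal epithelium and lacrimal gland only, and the tissues overlap for conjunctival epithelium and meibomian gland.

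Fat cell, nerve and gland genes varied by list. Over all genes tested, 27.7% were called towards the conjunctiva. All 5 tested fat cell genes were higher in the conjunctiva, where *Adipoq* had 1.39, 8.14, 7.26, 10.9 and 8.39 RPM, and 4 of the 6 listed had no read in the cornea. Genes without cornea reads could pass the filter only through the conjunctiva, which set their direction. Of 5 tested Schwann cell genes, 4 were higher in the conjunctiva and 1 was not called (median −2.07). The higher ones included the calcium-binding protein gene *S100b* (1.95 against 6.66 RPM, difference −2.25 ± 0.63) and the transcription factor gene *Sox10* (−2.07 ± 0.72). The call of *Sox10* (adjusted p = 0.028) was lost with voom and without any one of cornea CR 1, 2 and 3 and conjunctiva CR 1, 2 and 3, and quantile normalization ended both of these calls. The uncalled member was *Mbp*, a myelin gene, at 230.4 ± 13.8 and 234 ± 17.6 RPM (difference −0.02 ± 0.11, adjusted p = 0.91). Of 8 tested meibomian gland genes, 2 were higher in the conjunctiva, near the 27.7% of all genes, and 6 were not called. The called ones were *Soat1*, which esterifies cholesterol (12.1, 10.8, 11.7, 10.5 and 12.1 RPM in the cornea against 35.9, 28.9, 32.2, 31.6 and 193 RPM, difference −1.96 ± 0.45, adjusted p = 0.0041), and *Pparg*, a regulator of lipid genes (−2.39 ± 0.63, adjusted p = 0.0046). The tissues did not overlap for *Soat1*, and both genes were also called without conjunctiva CR 5, while *Pparg* lost the call after quantile normalization. The 6 uncalled members each had their highest level in conjunctiva CR 5. *Awat2*, a wax ester synthase of that gland, had 6.08, 0.164, 0.266, 0 and 169 RPM in conjunctiva CR 1 to 5 and no read in the cornea, and *Far2* had 6.08, 0, 0.620, 0 and 195 RPM. Their adjusted p was 0.18 and 0.32. The summed level of this list was 138, 118, 122, 93.5 and 937 RPM in conjunctiva CR 1 to 5 and 75.0 to 97.4 RPM in the cornea. Conjunctiva CR 5 also had the least skeletal muscle and the most *Krt12* of the conjunctiva libraries. The secreted carbonic anhydrase *Car6*, known from lacrimal and salivary gland, was found in the cornea, at 23.9, 26.4, 39.5, 11.4 and 4.75 RPM against 0.174, 0, 0.0886, 0.441 and 0 RPM in the conjunctiva (difference 4.81 ± 0.48, adjusted p = 1.5e-07). The other 6 lacrimal gland genes of the list, such as *Pip*, *Obp1a*, *Mup4* and *Lcn11*, were below 1 RPM in every CR library of the cornea. Keratins of eyelid skin (*Krt1* and *Krt10*) were not called.

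Most clock genes were not called, as held for most of all genes tested (8.95% cornea-higher and 27.7% conjunctiva-higher). Of 13 genes of the daily rhythm that are driven by E-box elements, 2 were higher in the cornea, 1 was higher in the conjunctiva and 10 were not called. *Dbp* had 296, 233, 283, 246 and 195 RPM in the cornea and 266, 242, 270.1, 208 and 159 RPM in the conjunctiva (difference 0.14 ± 0.16), *Nr1d1* 165 ± 26.9 and 164 ± 37.6 RPM (difference 0.03 ± 0.16) and *Per2* 118 ± 21.9 and 138 ± 28.4 RPM (difference −0.22 ± 0.16). For these 3 the tissues overlapped. *Hlf*, an output gene of the clock, was higher in the cornea (1238 ± 121 against 541 ± 73.0 RPM, difference 1.2 ± 0.13, adjusted p = 5.0e-07), as was *Ciart* (1.42 ± 0.31), and *Bhlhe41* was higher in the conjunctiva (−0.63 ± 0.22), a call lost with TMM scaling and without cornea CR 4, cornea CR 7, conjunctiva CR 3 or conjunctiva CR 4. Of 6 genes driven by ROR elements, *Arntl*, of the positive arm of the clock, was the called member. It had 10.6, 5.54, 11.8, 10.6 and 4.02 RPM in the cornea and 3.04, 0.987, 1.59, 0 and 1.46 RPM in the conjunctiva (difference 2.38 ± 0.47, adjusted p = 4.2e-04), at few reads in either. The other genes with the most reads were *Malat1*, a nuclear noncoding RNA that was not called (0.20 ± 0.14), *S100a6*, a calcium-binding protein gene that passed the adjusted p but not the fold (0.57 ± 0.14, adjusted p = 0.0019) but was called cornea-higher with TMM scaling and without single libraries, and *Cbr2*. *Cbr2*, a carbonyl reductase, had 11307, 12011, 10913, 10213 and 11285 RPM in the conjunctiva and 1729.9, 2397, 2391, 2237 and 2306 RPM in the cornea (difference −2.34 ± 0.12, adjusted p = 6.5e-11).

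The same comparison was made in the AL mice, whose 9 libraries are separate from the 10 above. There, 5436 of 13659 genes were called, 1200 higher in the cornea and 4236 in the conjunctiva. Of the genes called under CR, 4003 (81.7%) were called in the same direction under AL, which is 73.6% of the AL calls, and 0 were called in opposite directions. Across 13133 genes tested in both, the differences correlated with a Pearson r of 0.944, across genes that are not independent of each other. The leading genes kept their direction under both diets, and their sizes differed by varying amounts. *Krt12* differed by 7.59 under CR and 6.95 under AL, *Muc5ac* by −8.77 and −8.34, *Acta1* by −10.85 and −11.04, and *Krt15* by −1.06 and −1.06. Among the 10 largest differences towards the cornea, the values under CR and AL lay further apart for *Fam83a* (7.5 and 5.88), *Pdyn* (6.83 and 5.41) and *Fam169a* (7.23 and 6.22). The test of that gap between diets gave unadjusted p of 0.0098, 0.015 and 0.021 and adjusted p of 0.47, 0.51 and 0.55 in limma.

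**Figure D5:**
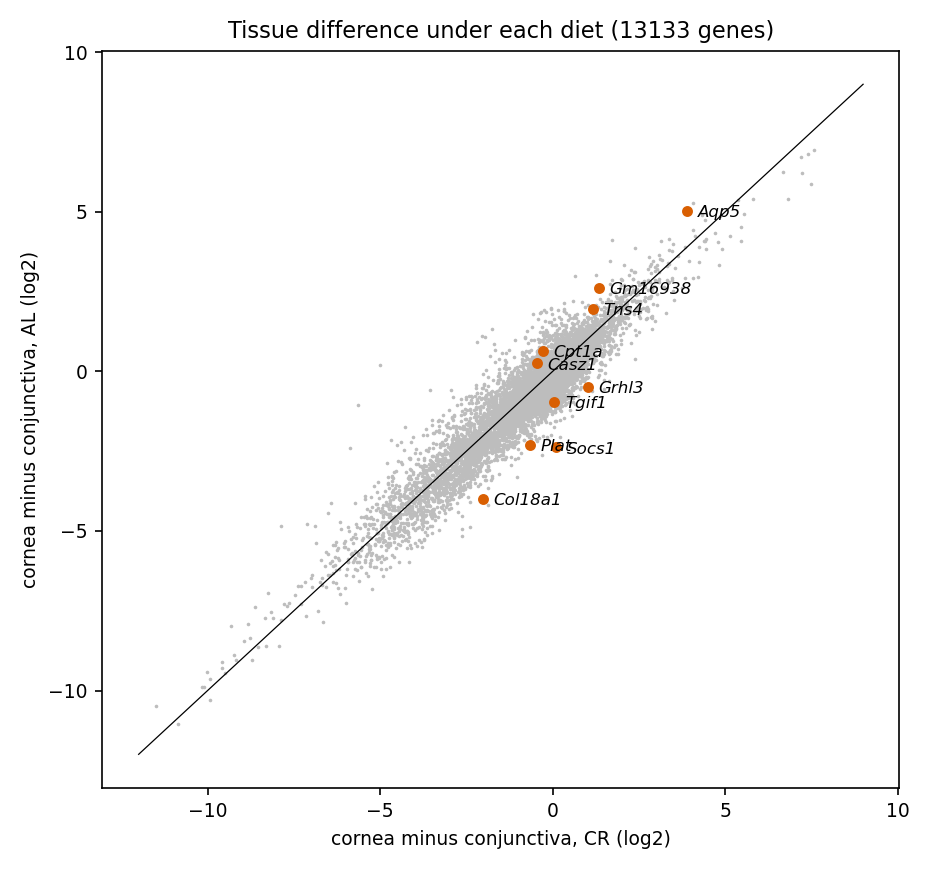
Difference between cornea and conjunctiva under CR (horizontal) against the same difference under AL (vertical), both on the log2 scale, for 13133 genes. The points follow the diagonal, and the 5 genes in each direction with the smallest p for a difference between diets are named.

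Whether the tissue difference itself depended on diet was tested gene by gene over all 19 libraries. Of 13561 genes, 0 (0.0%) passed an adjusted p of 0.05 in limma, with 1058 at an unadjusted p under 0.05 and a smallest adjusted p of 0.065. The count was 3 with TMM or median-of-ratios scaling (*Aqp5*, *Cpt1a* and *Gm16938* both times), 5 after quantile normalization and 13 with array weights, and it was 9 without cornea CR 1 and 3 without conjunctiva AL 4. The genes nearest to the threshold are given as values. *Aqp5* differed between tissues by 3.91 under CR and 5.02 under AL (CR minus AL −1.11 ± 0.19, adjusted p = 0.065). Its AL libraries held 4825, 4628, 4083, 2993 and 4987 RPM in the cornea and 116, 124, 144 and 138 RPM in the conjunctiva. The cornea mean was lower and the conjunctiva mean higher under CR than under AL. *Grhl3*, a factor of epithelial barrier formation, differed by 1.01 under CR and −0.49 under AL (1.5 ± 0.30, adjusted p = 0.073). *Tgif1* (1.0 ± 0.19), the basement membrane collagen gene *Col18a1* (1.98 ± 0.38), the plasminogen activator gene *Plat* (1.64 ± 0.32) and the cytokine inhibitor gene *Socs1* (2.48 ± 0.50) had positive values. *Cpt1a*, which brings fatty acids into mitochondria, (−0.95 ± 0.17), *Gm16938* (−1.28 ± 0.25), *Tns4* (−0.79 ± 0.18) and *Casz1* (−0.71 ± 0.16) had negative ones, with adjusted p between 0.065 and 0.17 for these 10 genes. Under CR, *Col18a1* and *Plat* were higher in the conjunctiva (the call of *Plat*, at an adjusted p of 0.041, was lost with TMM scaling and in 8 of the 10 fits with 1 library left out), *Gm16938*, *Tns4*, *Grhl3* and *Aqp5* were higher in the cornea, and the other 4 were not called.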

How the data were processed

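Libraries were grouped by the tissue and diet in their labels. The deposited values were log2(count/size factor + 1), which the authors made with DESeq2 for each tissue apart. Labels name build GRCm39 and a stranded mRNA kit, whereas the methods name mm10 and an oligo(dT) kit, so the use of strand in counting is unsettled. Here 2^value − 1 was divided by the smallest value above 0 of each column, which gave whole reads for 100% of values (tolerance 0.01). Both tables were joined by symbol and gene ID (24557 features), *Rn45s* was dropped and reads were scaled to RPM.

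limma 3.58.1 (trended, robust, with statmod 1.5.0, R 4.3.3) was fitted to log2(RPM + 0.5) of genes with a mean of at least 1 RPM, with Benjamini-Hochberg adjustment over all genes tested. Fold changes of low genes are understated on this scale. Library measures were compared by two-sided exact permutation tests. Procedures were tested on simulated data. Depth gives floors (3 reads) of 0.227 to 0.317 RPM per library, counting error only. Alternatives covered scaling, pseudocount, filter, voom, array weights, the replicate block and each library left out.

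Named genes were the 10 of largest difference each way (called at a fold over 4, no overlap, mean of at least 50 RPM in the higher tissue), the 5 with most reads per tissue, 5 each way by the p for diet, and the markers. Members and lists were chosen with earlier results of these data known. Lists also gave named members, chosen after their values were seen. Some genes counted within the lists are not reported here by name.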

Additional observations from a re-analysis of the deposited data

Results flagged for a closer look

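A library was singled out when its gap to the nearest of the other 4 of its group took an unusually large share of the group's whole range by Dixon's test at 95%. This held in 30 of 473 groups of 5 tested, where chance alone gives about 1 in 20. Of these, 7 fell in conjunctiva CR 5 and 6 each in cornea CR 7 and conjunctiva CR 3.

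Cornea CR 7 was high for *Krt13* (4735 RPM), *Krt19* (442 RPM), *Krt17* (192 RPM) and the summed conjunctival epithelium list (6429 RPM), and low for *Ppp1r3c* (164 RPM) and the glycogen list (694 RPM). Conjunctiva CR 5 was high for the meibomian gland list (937 RPM), *Soat1* (193 RPM), *Aqp4* (169.9 RPM), *Sox9* (510.04 RPM), *Wfdc2* (1756 RPM) and *Necab1* (4.93 RPM), and low for *Gapdh* (43.2 RPM). Conjunctiva CR 3, the library with the most skeletal muscle, was low for *Krt6a* (2035 RPM), *Pkp1* (160.18 RPM), *Muc1* (138 RPM), *Rarg* (163 RPM), *Hlf* (412 RPM) and the cornified envelope list (796 RPM).

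The other libraries gave single values. Cornea CR 1 stood at 50.8 RPM for *Pygb*, 3.90 RPM for *Ttn* and 1729.9 RPM for *Cbr2*. Cornea CR 2 was at 97.4 RPM for the meibomian gland list, and cornea CR 4 at 2316 RPM for the cornified envelope list and 79694 RPM for the keratin family. Conjunctiva CR 1 had 25.0 RPM of *Aldoc*, 12.2 RPM of *Wnt5a* and 1.39 RPM of *Adipoq*, conjunctiva CR 2 had 29045 RPM of *Malat1*, and conjunctiva CR 4 had 0.441 RPM of *Trpm3*.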

How the results depend on the processing

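The count of called genes stayed within 1.5 times of 4900 in every setting, at 3582 to 5473, and between 4536 and 5006 with 1 library left out. Calls at a fold over 4 (1999) fell to 1127 with a pseudocount of 2 and to 1193 with a filter at 5 RPM, which tests fewer genes. The genes whose tissue difference depended on diet (0) numbered 3 with TMM and with median-of-ratios scaling, 5 after quantile normalization, 2 without a filter, 13 with array weights, 0 to 9 with 1 library left out, and 1 without cornea CR 7 and conjunctiva CR 5 together, a setting chosen after seeing the data. The cause of these changes was not tested.

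Of 222 reported genes tested, 183 were called. None of these changed sign in any setting, and 36 lost the call in at least 1. The 15 that changed sign were uncalled. With TMM these were *Ldha* (0.108), *Defb1* (0.125), *Otx1* (0.0349) and *Mbp* (0.187), and with median-of-ratios *Ldha* (0.0476), *Defb1* (0.0647) and *Mbp* (0.127). After quantile normalization they were *Defb1* (0.00536), *Kera* (0.300), *Thbs1* (0.0998), *Cd68* (0.00184), *Mbp* (0.0835), *Krt1* (0.276), *Krt10* (0.0341) and *S100a6* (−0.0544). *Nr1d1* was at −0.00989 with *Rn45s* kept, −0.0385 with array weights and −0.0468 without both libraries, where *Socs1* was at −0.122. With 1 library left out, the ranges were −0.0317 to 0.105 for *Taldo1*, −0.0863 to 0.275 for *Ocln*, −0.0533 to 0.00891 for *Mbp*, −0.0745 to 0.140 for *Nr1d1*, −0.01 to 0.0997 for *Tgif1* and −0.0673 to 0.277 for *Socs1*.

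With the replicate block, which fits a term for each library number, 5040 genes were called, 2089 at a fold over 4 and 0 for diet. *Nr1d1* was at −0.0468 and *Socs1* at −0.122. Cornea CR 7 and conjunctiva CR 5 have no partner of their number. The block's tissue differences under CR therefore equal those without both libraries and are no separate check. In their deviations from the group means, libraries with the same number correlated at 0.0498, 0.0716, −0.121 and −0.0499. Not every library correlated best with its own number. These correlations compare different tissues, so they cannot show whether libraries shared a mouse. The numbers were not used as pairs in the main test.

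Depth limits genes under about 1 RPM.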
